A study of Mus musculus with 25 samples.

Results

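The average change in CD4 T cells between naive mice and day 7 of experimental autoimmune encephalomyelitis (EAE) was read over all 25 libraries of the series, 13 from day 7 and 12 from naive mice. Each gene was given a single stage effect, with the genotype at the miR-150 locus as an additive term, so that every genotype kept its own level. The day 7 libraries came from C57BL/6NTac mice that were wild-type (n = 5), knock-out for miR-150 (n = 4) or carried a miR-150 knock-in (n = 4), taken 7 days after disease induction. The naive libraries came from naive animals of the same strain, with 4 libraries for each genotype. Sorted CD4 T cells were the source throughout, and RNA was read as counts per gene from total RNA. The labels give no age, organ or immunogen, and do not say what the knock-in allele carries or whether animals were pooled or gave 1 library each. The p-values therefore measure the spread between these libraries, which may be technical.

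EAE is an immunization model of multiple sclerosis in which CD4 T cells primed against myelin antigens in lymphoid organs later enter the central nervous system. Naive T cells that meet antigen induce immediate early genes, grow, divide and take on helper programmes such as those of Th17 cells and T follicular helper cells. Interferon signalling keeps a separate set of antiviral genes expressed in resting lymphocytes. A bulk measurement of this kind cannot tell a change in the number of cells of a type from a change of RNA in each cell.

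The libraries held 6434118 to 49489134 counts at day 7 and 6024043 to 45739082 in naive cells. Mir150, the targeted gene, gave 0 counts in all 8 knock-out libraries and at least 105 counts in each of the others. The 11 genes of CD4 T cell identity were all detected, and 0 of them changed (summed level 2773 to 3077 CPM, that is counts per 1000000 counts, at day 7 and 2740 to 2935 CPM in naive cells). Cd4 itself had a median of 499.7 CPM at day 7 and 478 CPM in naive cells. Of 22 myeloid markers only 10 had enough counts to be tested, and their summed level was 16.0 to 31.0 CPM at day 7 and 14.7 to 31.2 CPM in naive cells. Genes for ribosomal RNA or annotated like it took a larger share of counts at day 7 (26.8% ± 2.60, SD, n = 13) than in naive cells (23.7% ± 1.56, SD, n = 12), a difference of 3.05 percentage points (two-sided permutation test within genotypes, p = 0.00228, adjusted over 5 library measures 0.0114). The deepest library, knock-out day 7 replicate 3, had the highest share, 32.6%, and limma voom gave it a quality weight of 0.155. Counts of calls with this share as a further term in the fit are given beside the results that it moves.

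Of 14703 genes tested, 1620 (11.0%) passed at an adjusted p under 0.05 in edgeR's quasi-likelihood test with Benjamini-Hochberg adjustment. Higher at day 7 were 889 (6.05%) and lower were 731 (4.97%). The increases were larger: the median log2 fold change of the genes that rose was 0.57, that of the genes that fell was -0.22, and that of all genes tested was -0.0037. A log2 fold change over 1 was reached by 246 genes that rose, while 34 of the genes that fell were below -1. A further way to read the effect is the overlap of single libraries. For 42 genes (0.286%) the 13 day 7 libraries and the 12 naive libraries did not overlap in CPM. Of these 27 were higher and 15 lower at day 7. All 42 also passed the edgeR test, which reads the same libraries and is not separate support. When the share of ribosomal RNA-like genes was added to the fit, 558 genes were called (322 higher, 236 lower), of which 494 were among the 1620.

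**Figure D1:**
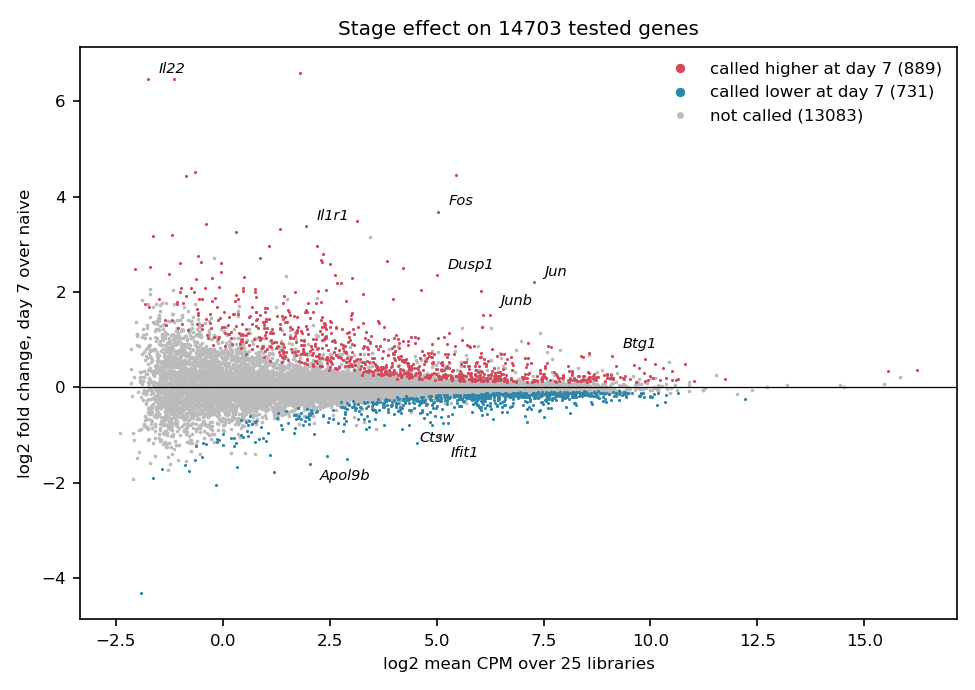
Each point is 1 of 14703 tested genes, with its log2 mean CPM over 25 libraries on the x axis and its log2 fold change, day 7 over naive, on the y axis, and 10 genes are labelled. The 889 genes called higher (red) reach further from 0 than the 731 called lower (blue), and the uncalled genes are grey. The value of Il22 is a fitted one, since no naive library had a count of it.

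Immediate early genes, which cells transcribe within minutes of a stimulus, were among the genes with the smallest p-values. Fos (ENSMUSG00000021250, chr12:85473890-85477273 in mm10), an AP-1 transcription factor subunit, ran from 25.7 CPM in the lowest to 119 CPM in the highest day 7 library, with a median of 48.3 CPM, while naive libraries had 1.53 to 13.1 CPM with a median of 4.09 CPM. Every day 7 library lay above every naive library, and the log2 fold change was 3.69 (12.9-fold, SE 0.30, adjusted p = 8.54e-10). Junb (ENSMUSG00000052837, chr8:84974484-84978718), another AP-1 subunit, had the smallest p of all genes that rose: 72.5 to 155 CPM at day 7 (median 112 CPM) against 29.2 to 55.4 CPM in naive cells (median 37.4 CPM), a log2 fold change of 1.51 (SE 0.09, adjusted p = 2.50e-12). Again the stages did not overlap.

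Dusp1 (ENSMUSG00000024190, chr17:26505590-26562128), a phosphatase that switches off MAP kinases, had 32.6 to 75.3 CPM at day 7 (median 49.7 CPM) and 4.83 to 21.0 CPM in naive cells (median 8.39 CPM), with a log2 fold change of 2.36 (SE 0.17, adjusted p = 3.74e-11). Ppp1r15a (ENSMUSG00000040435, chr7:45522916-45526268), which directs dephosphorylation of the translation factor eIF2 under stress, had 53.1 to 161 CPM (median 102 CPM) at day 7 and 16.1 to 48.2 CPM (median 22.2 CPM) in naive cells, with a log2 fold change of 2.02 (SE 0.14, adjusted p = 2.11e-11). For each of these genes the day 7 libraries stood clear of the naive ones. Further AP-1 subunits also rose: Fosb by 2.97 (SE 0.38, adjusted p = 3.66e-06), Jun by 2.20 (SE 0.21, adjusted p = 2.16e-08) and Jund by 0.84 (SE 0.07, adjusted p = 3.99e-09) on the log2 scale. Jund did not overlap between the stages, but the ranges of Jun met, at 138 CPM in the lowest day 7 library and 150 CPM in the highest naive library.

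**Figure D2:**
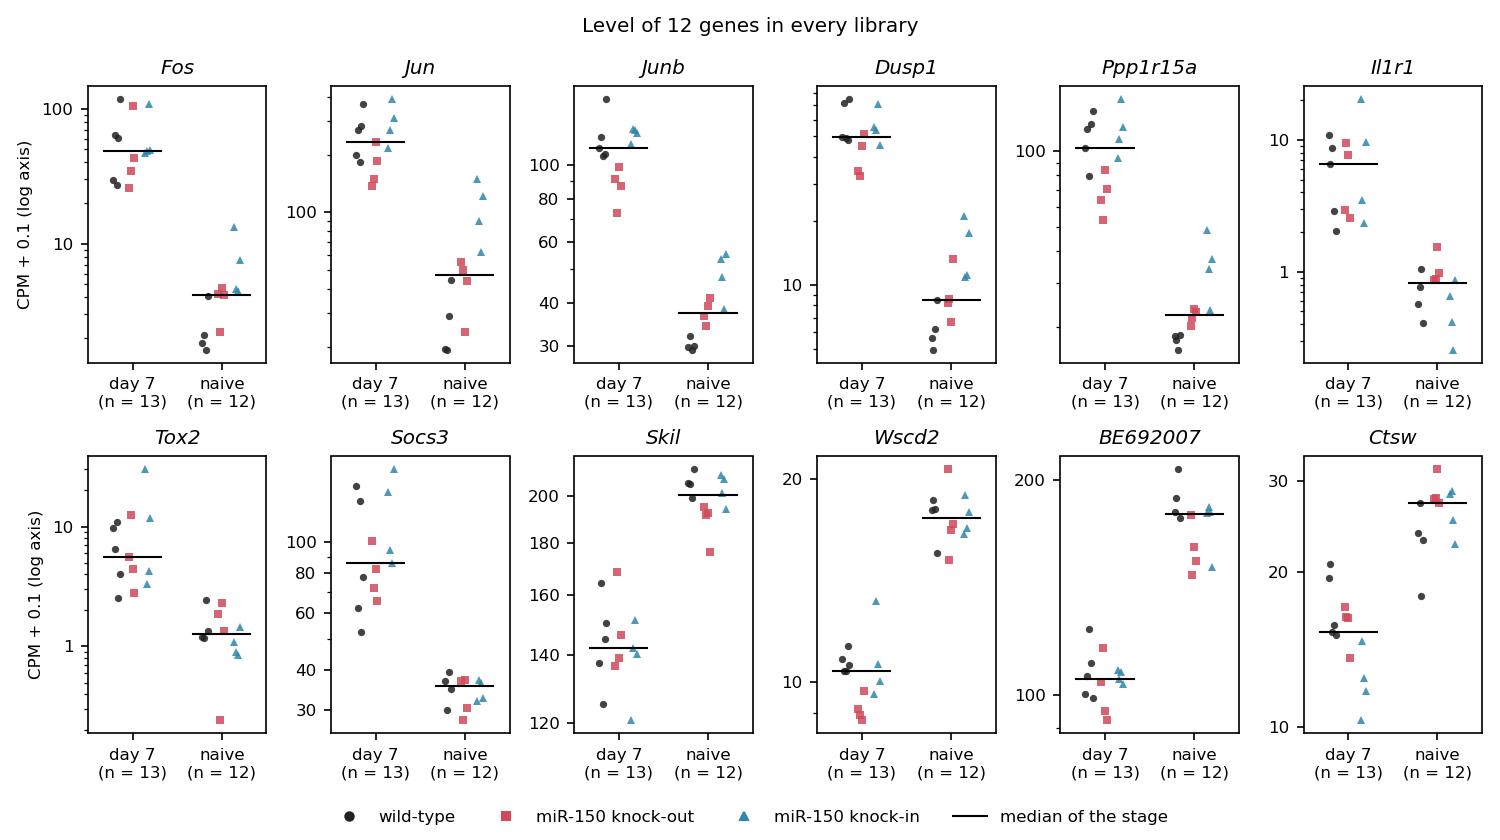
Each panel shows 1 gene, with CPM + 0.1 on a log axis, day 7 left of naive, 1 point for each library and a bar at the stage median. Fos, Junb, Dusp1, Ppp1r15a, Il1r1, Tox2 and Socs3 lie higher at day 7 with no overlap, Skil, Wscd2 and BE692007 lie lower with no overlap, and Jun and Ctsw overlap at the edges.

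Of the 38 genes on the early response list 35 were tested, 21 rose and 2 fell, with a median log2 fold change of 0.45. The list level, the mean log2(CPM + 0.5) of the tested members, ran from 4.92 to 5.56 at day 7 and from 4.21 to 4.77 in naive cells. The response was not shared by all members. Klf4 (1.68, SE 0.35, adjusted p = 0.00184) and Klf6 (0.81, SE 0.10, adjusted p = 2.34e-06), Krüppel-like transcription factors, were among those that rose. Genes usually induced by antigen receptor signals went different ways. Nr4a2, a relative of Nr4a1, was among the members that rose, and 4 others that did not pass or fell are given here. All of these were named after their values were seen. Egr1 had a median of 48.2 CPM at day 7 and 49.0 CPM in naive cells, with a log2 fold change of 0.0 (SE 0.06, adjusted p = 0.988), and Nr4a1 a log2 fold change of 0.06 (SE 0.11, adjusted p = 0.801). Egr2 (-0.34, SE 0.10, adjusted p = 0.0262) and Egr3 (-0.37, SE 0.06, adjusted p = 8.89e-05), related zinc finger factors, were the 2 members that fell; 1 did without wild-type naive replicate 2, knock-in day 7 replicate 2 or knock-out day 7 replicate 3. With the ribosomal RNA-like share in the fit 18 members rose and 1 fell.

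The promoters of 3 of these genes are shown because they carry a cyclic AMP response element (CRE) or a TATA box, elements known from genes that are switched on quickly. They are RefSeq sequences on GRCm38.p6, 250 bases before to 50 bases after the annotated start, and capitals mark CRE (TGACGTCA) and the TATA box (TATAAA), searched on both strands. The motifs do not overlap each other in these windows.
Fos promoter, chr12:85473640-85473939 (+ strand): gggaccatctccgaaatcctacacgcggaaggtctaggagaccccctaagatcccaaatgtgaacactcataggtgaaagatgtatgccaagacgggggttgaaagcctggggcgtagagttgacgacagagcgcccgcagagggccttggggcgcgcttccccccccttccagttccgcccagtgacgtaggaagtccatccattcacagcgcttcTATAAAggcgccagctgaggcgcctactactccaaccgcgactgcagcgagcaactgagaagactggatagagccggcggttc
Dusp1 promoter, chr17:26508423-26508722 (- strand): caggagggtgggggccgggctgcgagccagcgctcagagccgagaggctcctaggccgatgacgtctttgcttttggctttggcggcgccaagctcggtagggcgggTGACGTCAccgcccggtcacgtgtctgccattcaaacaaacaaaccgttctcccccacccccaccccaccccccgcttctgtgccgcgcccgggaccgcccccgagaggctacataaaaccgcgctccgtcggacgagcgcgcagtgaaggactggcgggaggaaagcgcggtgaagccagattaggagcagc
Ppp1r15a promoter, chr7:45526219-45526518 (- strand): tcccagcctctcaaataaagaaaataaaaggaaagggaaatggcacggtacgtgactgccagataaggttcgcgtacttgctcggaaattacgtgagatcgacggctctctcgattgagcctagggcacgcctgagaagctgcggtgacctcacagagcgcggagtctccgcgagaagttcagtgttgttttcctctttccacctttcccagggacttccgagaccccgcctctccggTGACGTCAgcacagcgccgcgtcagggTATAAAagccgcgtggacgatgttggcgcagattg
In Fos the TATA box begins at -33 from the start, in Dusp1 the CRE at -143, and in Ppp1r15a the CRE at -12 with a TATA match at 16. Windows were available for 17 of the 21 early response genes that rose, in 19 windows. CRE was present in 4 of these windows (21.1%) and the TATA box in 5 (26.3%). Over all tested protein-coding genes with a window (8909 of 11217, in 11368 windows) the shares were 3.17% and 6.58%. Over all protein-coding genes called higher they were 3.13% and 10.8%. Among the interferon genes that fell, read below, the TATA box had the same share (26.3%) and CRE 0%. More motifs than these were searched. The kappa-B site was in 21.1% of the early response windows (10.3% over all) and the heat shock element in 0% (0.47% over all). Such elements are known from genes of this kind, so their shares describe the list and not the change. These are matches of letters and say nothing of binding.

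Some regulators of cytokine and NF-kappaB signalling were also higher. Socs3 (ENSMUSG00000053113, chr11:117966079-117970047), an inhibitor of STAT3 signalling, had 52.5 to 168 CPM at day 7 (median 85.9 CPM) and 27.8 to 39.5 CPM in naive cells (median 35.7 CPM), without overlap, and a log2 fold change of 1.51 (SE 0.14, adjusted p = 1.79e-08). The serine/threonine kinase Pim1, a STAT target, rose by 0.87 (SE 0.09, adjusted p = 4.79e-08). Of 11 tested PIM and SOCS genes 4 rose and 1 fell, and the fall was lost in 17 of 25 fits that left out 1 library. Among 14 NF-kappaB subunits and inhibitors 5 rose and 0 fell: those named are Nfkbiz (0.51, SE 0.05, adjusted p = 4.53e-09), Bcl3 (0.75, SE 0.13, adjusted p = 0.000196), Tnfaip3 (0.49, SE 0.07, adjusted p = 1.00e-05) and Nfkbia (0.35, SE 0.07, adjusted p = 0.000745). Nfkbia, the main cytoplasmic IkappaB protein, did not pass with the ribosomal RNA-like share in the fit (0.21, adjusted p = 0.119), where 3 NF-kappaB genes rose. Nfkbiz encodes a nuclear IkappaB protein, and its 13 day 7 libraries (111 to 143 CPM) all exceeded the naive ones (78.5 to 94.6 CPM). Btg1, an anti-proliferative gene of resting lymphocytes, also separated the stages, with 539 to 770 CPM at day 7 and 337 to 518 CPM in naive cells (log2 fold change 0.66, SE 0.05, adjusted p = 5.17e-10).

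Chaperones and the stress response of protein synthesis moved in the same direction. Of 21 tested genes of the unfolded protein and integrated stress responses 13 rose and 0 fell (median log2 fold change 0.38), and the list level was 4.66 to 4.93 at day 7 and 4.17 to 4.54 in naive cells, without overlap. Atf4, the transcription factor of the integrated stress response, had 66.5 to 102 CPM at day 7 (median 87.3 CPM) and 41.9 to 70.3 CPM in naive cells (median 60.2 CPM), with a log2 fold change of 0.56 (SE 0.07, adjusted p = 1.98e-06). Dnajb9 (0.83, SE 0.08, adjusted p = 3.06e-08), a co-chaperone of the endoplasmic reticulum, and Hspa5 (0.41, SE 0.05, adjusted p = 4.71e-06), its main Hsp70 chaperone, rose too. Amino acid transporters include targets of ATF4, and 5 of 12 rose with 0 falling. Slc7a5, the light chain of the large neutral amino acid transporter, rose by 0.69 (SE 0.07, adjusted p = 1.28e-07), and its heavy chain Slc3a2 by 0.34 (SE 0.05, adjusted p = 1.07e-05). Of 14 heat shock genes 6 rose and 0 fell, with Hsp90aa1 at 0.66 (SE 0.08, adjusted p = 1.73e-06) and Hspa8 at 0.40 (SE 0.08, adjusted p = 0.000805). Adding the ribosomal RNA-like share left 8 stress response, 4 transporter and 4 heat shock genes higher. Without any filter on low counts 10 heat shock genes rose, and leaving out single libraries gave 4 to 8, 4 among others without wild-type naive replicate 1.

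Helper cell genes were read by lineage. Il1r1 (ENSMUSG00000026072, chr1:40225080-40317257), the interleukin-1 receptor carried by Th17 cells, had 1.92 to 20.4 CPM at day 7 (median 6.46 CPM) and 0.155 to 1.45 CPM in naive cells (median 0.715 CPM), without overlap. Its log2 fold change was 3.38 (10.4-fold, SE 0.40, adjusted p = 1.21e-06). Of 11 tested Th17 genes (of 14 on the list) 8 rose and 0 fell, with a median of 1.08. The Th17 cytokine Il22 gave 130 counts in 9 of 13 day 7 libraries and 0 in all naive libraries, at least 40.4-fold higher with a limit of 3 counts over the naive group, for counting error only. Il21, a cytokine of Th17 and follicular helper cells, rose by 3.27 on the log2 scale (SE 0.66, adjusted p = 0.00139), with medians of 0.777 CPM at day 7 and 0.139 CPM in naive cells. Maf (0.98, SE 0.22, adjusted p = 0.00386), a transcription factor of both lineages, and Ccr6 (1.08, SE 0.25, adjusted p = 0.00401), a chemokine receptor of Th17 cells, were also higher.

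The follicular helper list had 8 members that rose and 1 that fell of 16 tested (median 0.34). Tox2 (ENSMUSG00000074607, chr2:163203125-163324170), a factor that promotes follicular helper differentiation, had 2.42 to 30.0 CPM at day 7 (median 5.45 CPM) and 0.142 to 2.35 CPM in naive cells (median 1.17 CPM), a log2 fold change of 2.68 (SE 0.38, adjusted p = 1.95e-05). Cxcr5, the receptor that guides T cells into B cell follicles, had 3.28 to 37.5 CPM at day 7 (median 6.74 CPM) and 1.77 to 4.39 CPM in naive cells (median 3.22 CPM), a log2 fold change of 1.82 (SE 0.28, adjusted p = 5.91e-05). Only the lower part of its day 7 range met the naive range. Slamf6 (0.42, SE 0.07, adjusted p = 0.000207) and Icos (0.54, SE 0.13, adjusted p = 0.00641) rose less, and Tox, a relative of Tox2, fell (-0.27, SE 0.05, adjusted p = 0.000751). Bcl6, the lineage factor of follicular helper cells, was named after its value was seen and did not pass (0.19, SE 0.08, adjusted p = 0.116). The highest day 7 levels of Il1r1, Tox2, Cxcr5, Il21 and Il22 were in the same library, knock-in day 7 replicate 1. Without it 7 Th17 genes rose. With the stricter filter, which tested only 5 Th17 genes, all 5 rose. Tox did not pass with the ribosomal RNA-like share in the fit (adjusted p = 0.107).

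In other helper programmes fewer genes were called. Of 14 regulatory T cell genes 2 rose and 1 fell, and the fall was lost in 18 of 25 fits that left out 1 library. Ctla4 (0.44, SE 0.11, adjusted p = 0.00704) and Tigit (1.63, SE 0.36, adjusted p = 0.00323), inhibitory receptors also found on activated cells, were the members that rose. Foxp3, the lineage factor of regulatory T cells, had medians of 61.1 CPM at day 7 and 60.4 CPM in naive cells (log2 fold change -0.01, SE 0.07, adjusted p = 0.964) and was named after its value was seen. Among 13 Th1 genes 0 rose and 2 fell (15.4% called, against 11.0% of all genes tested). Nkg7 (-1.68, SE 0.44, adjusted p = 0.0115), a cytotoxic granule gene, was among those that fell. A negative log2 fold change was found for 11 of the 13, with a median of -0.29. With the stricter filter, which tested 7 Th1 genes, the median was -0.088. Naive T cell genes split, with 4 higher and 4 lower of 18. Klf2 (0.51, SE 0.06, adjusted p = 1.99e-06), which maintains quiescence and recirculation, and Igfbp4 (0.45, SE 0.06, adjusted p = 1.54e-05) were higher, while Dapl1 (-0.57, SE 0.08, adjusted p = 2.82e-05) and Il7r (-0.17, SE 0.05, adjusted p = 0.0212), the interleukin-7 receptor, were lower. Of 22 effector genes 4 rose, among them Lgals1 (0.58, SE 0.11, adjusted p = 0.000767), a galectin of activated T cells, and 1 fell. Nkg7 and Il7r did not pass with the ribosomal RNA-like share in the fit, where 3 naive T cell genes rose and 1 fell. The effector gene that fell was Ahnak (-0.62, SE 0.10, adjusted p = 8.41e-05), a large scaffold protein of antigen-experienced cells.

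**Figure D3:**
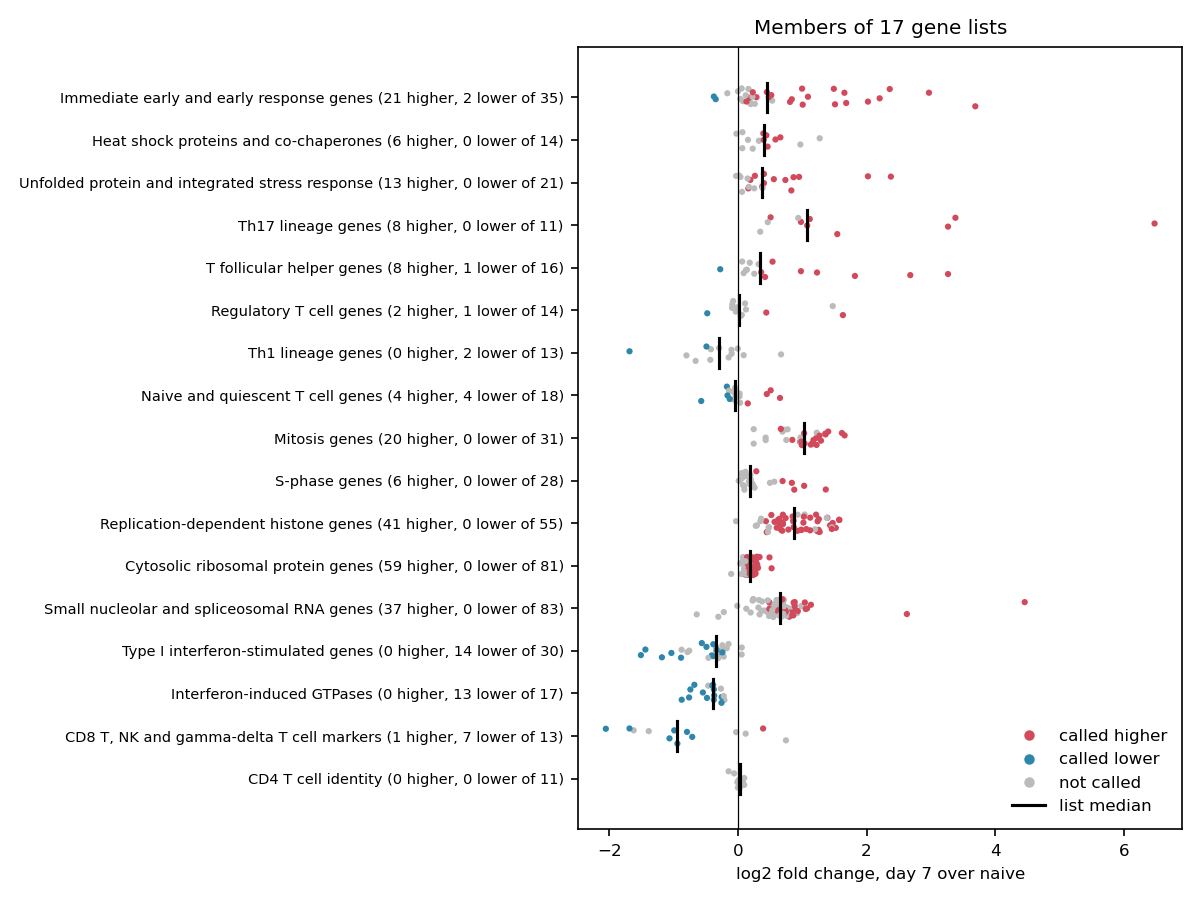
Each point is a tested gene, placed by its log2 fold change, day 7 over naive, in rows of 17 gene lists, with red for called higher, blue for called lower, grey for not called and a black bar at the list median. Mitosis, histone and Th17 genes lie mostly above 0 and interferon genes mostly below it, while the 11 CD4 identity genes stay near 0; Il22, the rightmost point, is a fitted value.

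Cell division genes were higher at day 7. Of 31 mitosis genes 20 rose and 0 fell, with a median log2 fold change of 1.03. Top2a, the DNA topoisomerase of dividing cells, had 12.1 to 100.2 CPM at day 7 (median 41.0 CPM) and 9.72 to 35.8 CPM in naive cells (median 19.0 CPM), a log2 fold change of 1.03 (SE 0.25, adjusted p = 0.00707). Ccna2, cyclin A2, rose by 1.62 (SE 0.30, adjusted p = 0.000481) and Birc5, or survivin, by 1.22 (SE 0.23, adjusted p = 0.000745). The lowest day 7 library lay within the naive range for these genes, so the difference is one of averages. S-phase genes moved less: all 28 had a positive log2 fold change, 6 passed and 0 fell, and the median was 0.19. Rrm2, a subunit of ribonucleotide reductase (1.37, SE 0.28, adjusted p = 0.0013), and Uhrf1, which maintains DNA methylation at replication (1.03, SE 0.21, adjusted p = 0.00176), led this group. Without knock-in day 7 replicate 1 or knock-out day 7 replicate 2 the S-phase count was 2, leaving out other single libraries gave 3 to 8, and with sets of consecutive library numbers in the fit it was 3.

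Replication-dependent histone genes, whose messages lack a poly(A) tail and are read in total RNA, rose in 41 of 55 tested cases (67 on the list) with 0 falling and a median of 0.87. The linker histone Hist1h1e had 70.5 to 168 CPM at day 7 (median 132 CPM) and 65.2 to 106 CPM in naive cells (median 79.9 CPM), a log2 fold change of 0.64 (SE 0.10, adjusted p = 2.86e-05). Hist1h1d (0.85, SE 0.13, adjusted p = 3.88e-05) and Hist3h2a (1.57, SE 0.22, adjusted p = 1.73e-05) rose further. Many histone genes are near-identical copies whose reads may have been split between them. The count of calls in the mitosis list ran from 14 (without knock-out day 7 replicate 2) to 25, and that in the histone list from 31 (without knock-in day 7 replicate 1) to 46, when single libraries were left out. With sets of consecutive library numbers in the fit 10 mitosis and 28 histone genes were called, and limma voom called 12 mitosis genes.

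**Figure D4:**
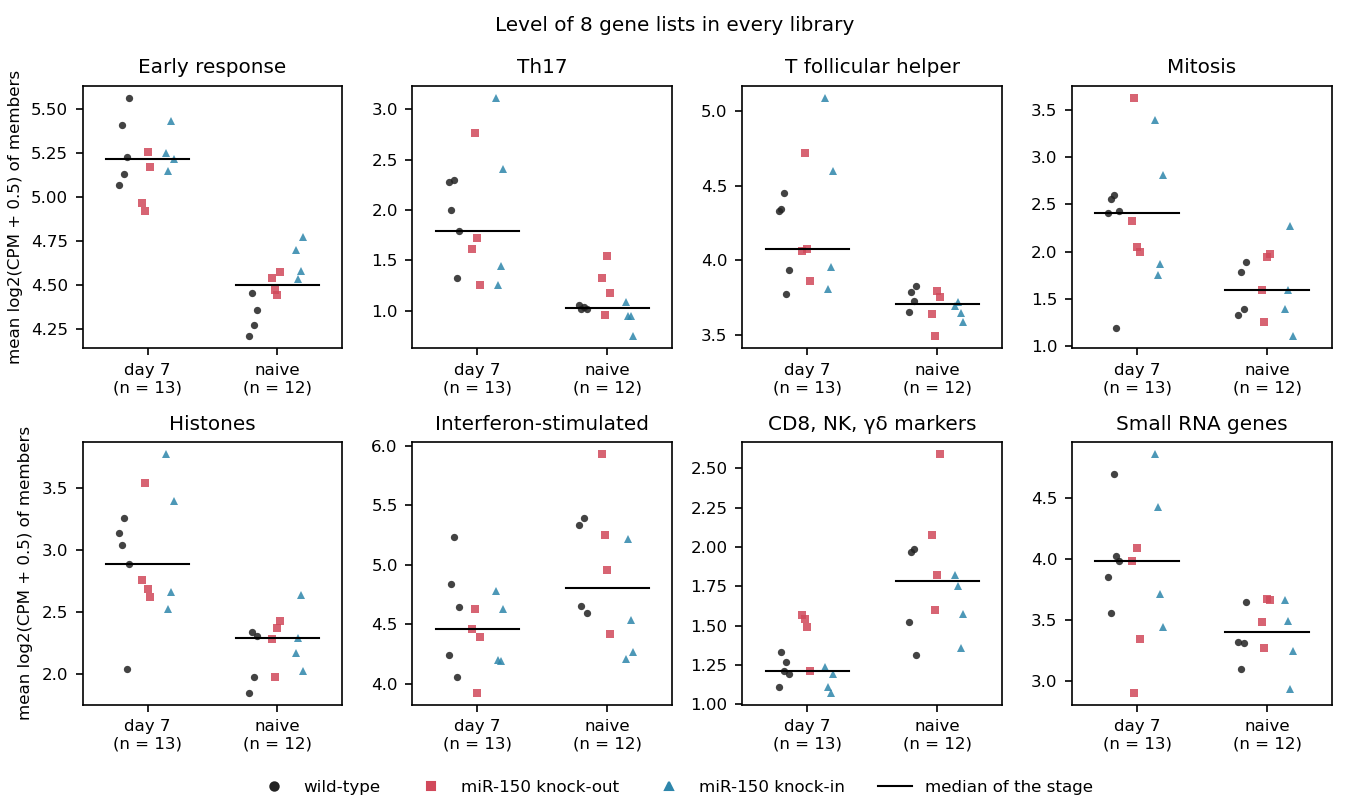
Each panel shows the mean log2(CPM + 0.5) of the tested members of 1 list in every library, day 7 left of naive, with a bar at the stage median. The early response levels do not overlap (4.92 to 5.56 at day 7, 4.21 to 4.77 in naive cells), while the levels of all other lists shown overlap. Knock-in day 7 replicate 1 is highest for Th17, follicular helper, histone and small RNA genes.

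Genes of protein synthesis rose by small steps. Of 81 tested cytosolic ribosomal protein genes 59 rose and 0 fell, with a median log2 fold change of 0.20. Rps6, a protein of the small subunit, had 505 to 658 CPM at day 7 (median 613 CPM) and 443 to 546 CPM in naive cells (median 489 CPM), a log2 fold change of 0.27 (SE 0.04, adjusted p = 7.20e-06). Rps18 behaved alike (0.27, SE 0.04, adjusted p = 0.000104). Translation factors had 13 higher and 0 lower of 40, with Eif1, which guides start codon choice, at 0.49 (SE 0.06, adjusted p = 1.33e-06) and Eef1a1, the elongation factor that delivers tRNA, at 0.18 (SE 0.03, adjusted p = 0.000818). Of 27 ribosome biogenesis genes 3 rose (11.1% called, against 11.0% of all genes tested). The list median was -0.02, and 1 gene rose without wild-type naive replicate 3. Ribosomal protein genes share reads with many pseudogenes, so single values are uncertain. With the ribosomal RNA-like share in the fit 18 ribosomal protein genes and 5 translation factors were called.

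Metabolic genes moved little. Over all genes tested 11.0% were called, against 10.1% of the respiratory chain, 15% of the glycolysis and 10% of the cholesterol list. Of the mitochondrially encoded genes 10% were called. Of 79 nuclear-encoded respiratory chain genes 8 rose and 0 fell, among them Cox8a (0.36, SE 0.09, adjusted p = 0.00867), a subunit of cytochrome c oxidase, and 0 did with the ribosomal RNA-like share in the fit. Leaving out single libraries gave 4 (without wild-type naive replicate 2 or knock-in day 7 replicate 1) to 12 such genes. Of 20 glycolysis genes 2 rose and 1 fell, and of 20 cholesterol synthesis genes 2 rose. Leaving out single libraries gave 1 (without knock-in day 7 replicate 1) to 4 (without knock-out naive replicate 4) higher glycolysis genes and lost the 1 lower in 16 of 25 fits. The cholesterol count ran between 0 and 4 and moved by over 1.5 times in 17 of 25 fits. Of 10 tested mitochondrially encoded genes 1 passed, mt-Nd2 (0.15, SE 0.05, adjusted p = 0.0277), a subunit of complex I. It missed the threshold without wild-type naive replicate 2 (adjusted p = 0.051), wild-type naive replicate 3 (0.0567) or knock-in day 7 replicate 3 (0.0547). The call of mt-Nd2 was also lost with limma voom and with the ribosomal RNA-like share in the fit (adjusted p = 0.299). Survival genes of the BCL2 family had 4 higher and 0 lower of 15. Bcl2, which blocks mitochondrial apoptosis, had 205.2 to 261 CPM at day 7 and 167 to 200.7 CPM in naive cells, without overlap (log2 fold change 0.32, SE 0.04, adjusted p = 9.66e-07), and Bax, which promotes it, rose by 0.45 (SE 0.08, adjusted p = 0.000424). With the ribosomal RNA-like share in the fit 2 of the family rose.

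Genes induced by interferons were lower at day 7. Of 30 type I interferon-stimulated genes 14 fell and 0 rose (median log2 fold change -0.34), and of 17 interferon-induced GTPases 13 fell and 0 rose (median -0.38). Ifit1 (ENSMUSG00000034459, chr19:34640871-34650009), which binds viral RNA, had 10.5 to 44.5 CPM at day 7 (median 20.8 CPM) and 16.4 to 104 CPM in naive cells (median 34.4 CPM), a log2 fold change of -1.03 (SE 0.24, adjusted p = 0.00517). The naive libraries were widely spread and the ranges overlapped. Rsad2, the antiviral enzyme viperin (-1.44, SE 0.41, adjusted p = 0.0221), Ifit3 (-1.18, SE 0.30, adjusted p = 0.0101), a partner of Ifit1, and Oasl2 (-0.88, SE 0.25, adjusted p = 0.0193), of the oligoadenylate synthetase family, fell by like amounts. Irf9, the DNA-binding subunit of the factor that type I interferon activates, fell by 0.33 (SE 0.06, adjusted p = 0.00082). Tgtp1, a GTPase of the resistance to intracellular pathogens, had 11.7 to 34.6 CPM at day 7 (median 20.1 CPM) and 24.7 to 44.6 CPM in naive cells (median 36.6 CPM), a log2 fold change of -0.74 (SE 0.12, adjusted p = 8.76e-05). Tgtp1 and Tgtp2, like Ifit3 and Ifit3b, are close copies. With the ribosomal RNA-like share in the fit 1 interferon-stimulated gene and 4 GTPases were still called lower, while the medians were -0.30 and -0.31. limma voom called 9 and 13 lower, and without a filter on low counts 22 interferon-stimulated genes fell. Leaving out single libraries gave 10 (without knock-in naive replicate 2) to 17 interferon-stimulated genes, and Rsad2 missed the threshold without that library (-1.30, adjusted p = 0.0551).

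The promoters of 3 of the interferon genes that fell are shown because they hold the interferon-stimulated response element (ISRE), the site of the factor that contains Irf9. Windows and source are as above, and capitals mark each match to the ISRE on either strand.
Ifit1 promoter, chr19:34640639-34640938 (+ strand): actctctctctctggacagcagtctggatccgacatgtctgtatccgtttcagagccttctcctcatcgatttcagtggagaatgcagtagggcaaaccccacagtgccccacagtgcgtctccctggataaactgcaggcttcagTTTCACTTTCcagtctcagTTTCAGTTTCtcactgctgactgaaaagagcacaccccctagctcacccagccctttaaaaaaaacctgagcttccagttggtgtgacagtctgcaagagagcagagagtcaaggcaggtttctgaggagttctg
Ifit3 promoter, chr19:34583279-34583578 (+ strand): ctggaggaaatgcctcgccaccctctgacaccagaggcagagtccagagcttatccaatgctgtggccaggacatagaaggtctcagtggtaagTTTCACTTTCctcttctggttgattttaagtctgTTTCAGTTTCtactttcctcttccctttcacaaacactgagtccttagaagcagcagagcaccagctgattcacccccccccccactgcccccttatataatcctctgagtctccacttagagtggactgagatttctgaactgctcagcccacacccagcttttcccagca
Rsad2 promoter, chr12:26456403-26456702 (- strand): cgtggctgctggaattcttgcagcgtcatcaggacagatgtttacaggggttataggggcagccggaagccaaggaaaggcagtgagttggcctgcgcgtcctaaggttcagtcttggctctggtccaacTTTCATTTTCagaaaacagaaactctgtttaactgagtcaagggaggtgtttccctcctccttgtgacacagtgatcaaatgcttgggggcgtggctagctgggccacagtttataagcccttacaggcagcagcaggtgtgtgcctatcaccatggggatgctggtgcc
The matches begin at -104 and -85 from the start in Ifit1, at -156 and -122 in Ifit3 and at -120 in Rsad2. Windows were available for 17 of the interferon genes that fell on these lists, in 19 windows, and 14 windows (73.7%) of 13 genes held an ISRE. Over all tested protein-coding genes with a window the share was 3.19%. Such genes are known by this element, so its share describes the lists and not the change.

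Markers of cytotoxic and unconventional lymphocytes fell in the sorted cells. Of 13 tested markers of CD8 T cells, NK cells and gamma-delta T cells, 7 fell and 1 rose (median -0.94), and their summed level was 56.0 to 83.1 CPM at day 7 and 70.5 to 106 CPM in naive cells. Klrk1, the receptor NKG2D, had 0 to 1.15 CPM at day 7 (median 0.158 CPM) and 0.206 to 3.93 CPM in naive cells (median 1.27 CPM), a log2 fold change of -2.05 (SE 0.37, adjusted p = 0.000375). Ctsw, a cathepsin of cytotoxic cells, had 10.2 to 20.6 CPM (median 15.2 CPM) at day 7 and 17.9 to 31.6 CPM (median 27.1 CPM) in naive cells, a log2 fold change of -0.79 (SE 0.09, adjusted p = 5.10e-07). The constant segment Trdc of the delta chain fell by 0.71 (SE 0.09, adjusted p = 1.98e-06), and Klrd1, or CD94, by 0.99 (SE 0.18, adjusted p = 0.000469). Cd8a and Cd8b1, the defining CD8 genes, did not pass (adjusted p = 0.0876 and 0.922, named after their values were seen). With the stricter filter, which tested only 5 of these markers, 3 fell and 1 rose. Part of the fall in cytotoxic genes of the Th1 list, such as Nkg7, is counted here too, and the part of such cells in any other result was not tested.

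Some B cell and plasma cell genes varied widely between libraries. Of 18 tested B cell and MHC class II markers 1, Igkc, was called higher and 0 lower. For 13 of them the log2 fold change was negative, and the list median was -0.21. Igkc, the kappa light chain, had a median of 12.9 CPM at day 7 and 6.18 CPM in naive cells, but 198 CPM in knock-in day 7 replicate 4, and it passed narrowly (log2 fold change 1.85, SE 0.57, adjusted p = 0.0348). Without that library the log2 fold change was 0.98 (adjusted p = 0.146). The call was also lost without any 1 of the 4 knock-in naive libraries, wild-type naive replicates 1, 3 or 4, knock-out naive replicate 2 or wild-type day 7 replicate 3 (adjusted p up to 0.0649). Igkc did not pass with the ribosomal RNA-like share (adjusted p = 0.111) or sets of consecutive library numbers (0.122) in the fit. The median log2 fold change of 4 plasma cell markers was 2.37 and fell to 0.17 without knock-in day 7 replicate 4. Of 10 tested myeloid markers 3 rose, namely Mpo (3.43, SE 0.77, adjusted p = 0.0037), Cebpa (3.19, SE 0.76, adjusted p = 0.00561) and Cebpb (1.26, SE 0.14, adjusted p = 6.84e-07), genes of granulocyte precursors and, for Cebpb, of many activated cells. Mpo did not exceed 5.62 CPM at day 7 or 0.382 CPM in naive cells, and Cebpa did not pass with limma voom (1.94, adjusted p = 0.0879).

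Several of the firmest decreases lay outside the lists. BE692007 (ENSMUSG00000099757, chr19:11470166-11484578), annotated as a processed transcript, had the smallest p of the genes that fell, with 92.2 to 124 CPM at day 7 (median 105 CPM) and 147 to 207.3 CPM in naive cells (median 179 CPM), a log2 fold change of -0.72 (SE 0.05, adjusted p = 5.25e-12). Wscd2 (ENSMUSG00000063430, chr5:113490333-113589725) had 8.67 to 13.1 CPM at day 7 (median 10.3 CPM) and 15.1 to 20.6 CPM in naive cells (median 17.4 CPM), a log2 fold change of -0.79 (SE 0.07, adjusted p = 2.39e-09). Neither gene overlapped between the stages. Gpd2, the mitochondrial glycerol-3-phosphate dehydrogenase (-0.79, SE 0.08, adjusted p = 2.13e-07), Arsb, a lysosomal sulfatase (-0.74, SE 0.08, adjusted p = 2.22e-07), and St8sia6, a sialyltransferase (-0.61, SE 0.06, adjusted p = 1.92e-07), were lower without overlap as well. Cd86, a costimulatory ligand best known from antigen-presenting cells, fell by 0.92 (SE 0.15, adjusted p = 8.89e-05), and Apol9b, of the apolipoprotein L family, by 1.61 (SE 0.24, adjusted p = 3.38e-05).

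Skil (ENSMUSG00000027660, chr3:31095058-31122577), a repressor and target of SMAD signalling, had 121 to 168 CPM at day 7 (median 142 CPM) and 176 to 212.3 CPM in naive cells (median 200.1 CPM), a log2 fold change of -0.48 (SE 0.04, adjusted p = 1.67e-08). Of 13 genes of the TGF-beta pathway 5 fell and 1 rose, and the rise was lost in 7 of 25 fits that left out 1 library. Smad5 (-0.29, SE 0.05, adjusted p = 0.000539), a signal transducer of the related BMP receptors, Ski (-0.20, SE 0.03, adjusted p = 0.000123), a relative of Skil, and the receptor Tgfbr2 (-0.16, SE 0.03, adjusted p = 0.000774) were among those that fell. Ubiquitin ligases of T cell tolerance had 2 lower and 1 higher of 13, with Nedd4 at -0.66 (SE 0.13, adjusted p = 0.0007) and Dtx1, a Notch-related gene of anergic cells, at 0.93 (SE 0.11, adjusted p = 1.17e-06). The antigen receptor complex and its proximal kinases kept close to 0, with 1 higher and 2 lower of 20 (15% called, against 11.0% of all genes tested). The 1 higher, Lat, was lost without wild-type naive replicate 1, 3 or 4 or knock-in naive replicate 3. Lat also did not pass with sets of consecutive library numbers (adjusted p = 0.0801) or the ribosomal RNA-like share (0.04, adjusted p = 0.785) in the fit. Fyn (-0.11, SE 0.03, adjusted p = 0.0267), a Src family kinase, was among the members that fell. It missed the threshold without knock-in day 7 replicate 2, knock-out naive replicate 3, knock-out day 7 replicate 3 or knock-in naive replicate 4 (adjusted p up to 0.0607), and both Fyn and Itgal did so with the ribosomal RNA-like share in the fit. Among adhesion and migration genes 6 of 24 rose and 2 fell; 3 rose without knock-in naive replicate 1 or knock-in day 7 replicate 1, and only 1 fell in 8 of 25 fits that left out 1 library. The called genes included Itgal, a chain of the integrin LFA-1 (0.16, SE 0.04, adjusted p = 0.00551), and Itga4, the alpha4 integrin chain (-0.21, SE 0.04, adjusted p = 0.000481).

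In the fit with genotype and stage, short noncoding RNA genes were called higher more often than protein-coding genes. Of 196 snoRNA genes 67 (34.2%) were higher and 0 lower, of 236 snRNA genes 40 (16.9%) were higher and 2 lower, and of 68 genes annotated as rRNA, many of the 5S family, 27 (39.7%) were higher and 0 lower. Protein-coding genes were called higher in 5.53% and lower in 5.56% of 11217 cases. Snord118, the U8 snoRNA that processes large subunit rRNA, rose by 1.14 (SE 0.23, adjusted p = 0.00161) with medians of 44.4 CPM at day 7 and 24.5 CPM in naive cells, and Scarna2, a guide RNA of Cajal bodies, by 0.51 (SE 0.11, adjusted p = 0.00289). These differences moved with the library measure: with the ribosomal RNA-like share in the fit 0 snoRNA, 1 snRNA and 1 rRNA gene were called higher. In that fit Snord118 had a log2 fold change of 0.66 (adjusted p = 0.209) and Scarna2 0.095 (adjusted p = 0.659). Genes annotated as rRNA are themselves part of that share, so the loss of their calls with it is partly built in. Without knock-out day 7 replicate 3, 6 of 70 rRNA genes (8.57%) were higher, and with limma voom 4 of 68 (5.88%). The snoRNA count ran from 27 (13.4%, without knock-in day 7 replicate 1) to 108 (52.9%, without knock-out day 7 replicate 2) when single libraries were left out, and was 44 with limma voom. The snRNA count was 20 without knock-in day 7 replicate 1 and 16 (6.78%) with limma voom. Of 83 tested genes on the list of named small RNA genes 37 rose in the edgeR fit, 1 with that share as a term, 12 without knock-in day 7 replicate 1, 23 with limma voom and 63 with no filter on low counts.

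Some of the largest fold changes came from 1 library. Rimbp3 (6.60, SE 1.30, adjusted p = 0.00104) had 71.7 CPM in knock-out day 7 replicate 3, a day 7 median of 0.383 CPM and at most 0.691 CPM in naive cells. Its log2 fold change was 3.76 without that library (adjusted p = 0.025) and 2.83 with limma voom (adjusted p = 0.0827). With the ribosomal RNA-like share in the fit it was 3.13 (adjusted p = 0.308). Rnu1a1, a U1 snRNA gene (4.46, SE 1.46, adjusted p = 0.0463), had 1077 CPM in wild-type day 7 replicate 5 and a day 7 median of 0.993 CPM. Without that library its log2 fold change was 0.67 (adjusted p = 0.112), and the call was lost without any of 12 others. The 5S genes n-R5s136 and n-R5s151 had their highest levels, 319.7 and 96.5 CPM, in knock-out day 7 replicate 3 and were not called without it (1.10 and 1.40, adjusted p = 0.316 and 0.111). U1 and 5S genes are near-identical copies, so the value of any one of them is uncertain.

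Genes that rose and genes that fell differed in length. Among protein-coding genes called higher the median gene span was 11554.5 bp, the median of the longest transcript 2806 nt and the median number of exons 6. Among those called lower these were 48108 bp, 4885 nt and 11, and among all tested 23875 bp, 3413 nt and 8. Protein-coding genes were put in 5 bins of equal size by span. In the bin with the shortest span 11.9% were called higher and 1.87% lower, while in the bin with the longest span 3.30% were called higher and 10.8% lower. With the ribosomal RNA-like share in the fit these shares were 5.26% and 0.98% for the shortest and 1.52% and 2.99% for the longest genes. Single genes went both ways. Fos, Junb and Ppp1r15a, which rose, have spans below the median of tested protein-coding genes, and Skil, Wscd2 and Arsb, which fell, above it. Il1r1 and Tox2 rose with spans above that median, and BE692007 fell with a span below it. The annotated span of Dusp1, which rose, is also above it, but is uncertain. Its RefSeq promoter window (chr17:26508423-26508722, - strand) lies near the lower end of that span, so the gene from this start is much shorter. The part of gene span in these changes was not tested.

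**Figure D5:**
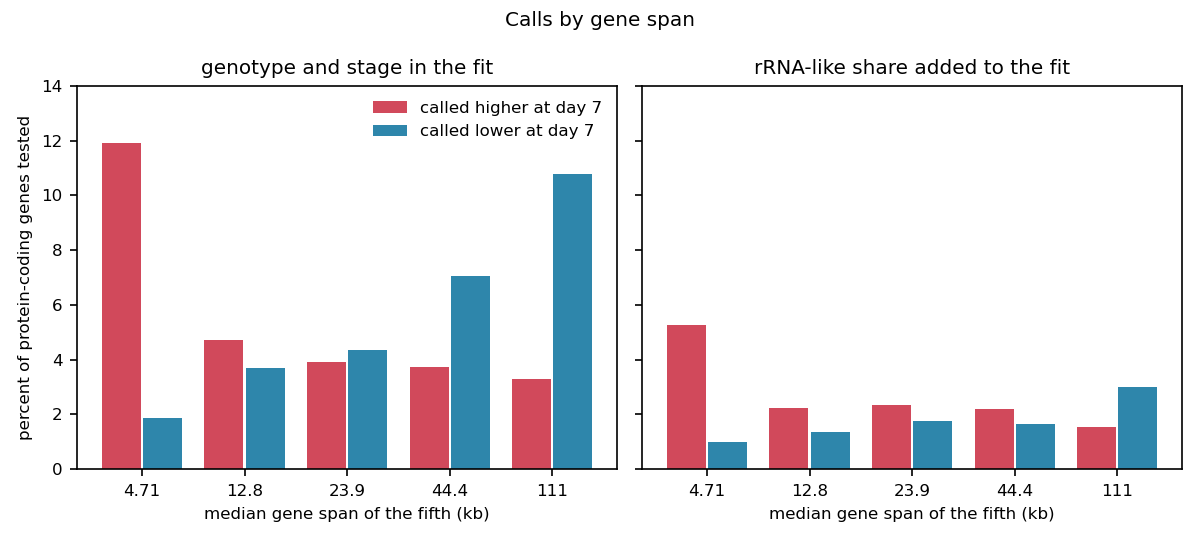
Bars give the percent of tested protein-coding genes called higher (red) or lower (blue) at day 7 in 5 equal bins of gene span, labelled by the median span in kb, in the fit with genotype and stage (left) and with the ribosomal RNA-like share added (right). In the left panel 11.9% of the shortest genes were called higher and 10.8% of the longest lower, against 5.26% and 2.99% in the right panel.

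A single average describes the stage effect only where genotypes move alike. The interaction of stage and genotype was called for 0 of 14703 genes (0%) in edgeR, with a lowest adjusted p of 0.480 and 1000 genes at an unadjusted p under 0.05. DESeq2 called 2, limma voom 0 and edgeR with no filter on low counts, which tested 29775 genes, 312. Of the 1620 genes called for the average effect 1563 had the same sign of the difference in all 3 genotypes, also that of the fitted effect. Of the 14703 tested 5946 had the same sign in all 3 genotypes. The 1620 were selected by the average over these same libraries, which favours a shared sign. The counts therefore do not test whether genotypes moved alike. A p that misses the threshold does not show that the genotypes responded alike.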

How the data were processed

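RNA of sorted CD4 T cells was measured in 25 libraries. Per the labels' protocols, RNA was extracted with miRNeasy, made into libraries with a stranded total RNA kit (SMARTer, Pico input) and read in pairs of 150 bases. The deposited table holds the authors' raw counts per Ensembl gene for 46078 genes, checked to hold no negative value and no repeated gene ID. Per the submitters' processing notes, mm10 and DESeq2 were used. Counting tool, strand setting and annotation are not given in the sources used here. Overlapping and antisense genes are therefore uncertain. Symbols and positions came from GENCODE M21 (45143 IDs matched), promoters from RefSeq (GRCm38.p6).

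Libraries were grouped by genotype and stage from their titles. Low counts were removed with filterByExpr (6 groups, at least 10 counts and 15 in total), which left 14703 genes, which were scaled by TMM and fitted with genotype and stage. Where no tool is named, adjusted p-values are edgeR's. SE is that of the log2 fold change, and CPM is TMM-scaled. Total counts per library run from 6024043 to 49489134; no pair of libraries of a group agreed within sampling noise. Ribosomal RNA-like genes are those of biotype rRNA or mitochondrial rRNA and 6 repeat-like loci. The 46 gene lists, the naming rule and the tests were chosen with earlier results of these data known. The rule named the 12 called genes with the largest fold change and the 8 with the smallest p in each direction (same sign in 3 genotypes, at least 5 CPM), and up to 4 called members, or 2 uncalled, of each list, leaving out predicted genes, pseudogenes and receptor segments. The procedure was tested on simulated data. Some named genes are not reported here.

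Alternatives were DESeq2, RLE size factors, limma voom with library quality weights, a stricter filter (5 CPM in 4 libraries) or none, no genotype term, 6 group means, sets of 4 consecutive library numbers, the ribosomal RNA-like share as a term, no mitochondrial, rRNA-like or haemoglobin genes, and leaving out each of 25 libraries. Counts per list, gene span and RNA class under these settings were added after the results were seen. R 4.3.3 ran edgeR 4.0.16, DESeq2 1.42.0 and limma 3.58.1. Python was 3.11.15, with matplotlib 3.10.9 for plots and pandas 2.3.3.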

Additional observations from a re-analysis of the deposited data

Results flagged for a closer look

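Within the 6 groups of 4 or 5 libraries, 6 library measures lay far from the rest of their group; chance alone flags about 1 in 20 such groups, and 30 were read. Genes for ribosomal RNA or like it took 24.2% of counts in knock-in naive replicate 2 (22.87% to 22.96% in the other 3 libraries), 23.8% in knock-out naive replicate 2 (25.7% to 26.0%) and 20.6% in wild-type naive replicate 1 (22.97% to 23.36%). Mitochondrially encoded protein genes took 0.851% in knock-out day 7 replicate 2, against 0.596% to 0.626% in its group. Haemoglobin genes took 0.000389% in wild-type day 7 replicate 4, against at most 2.90e-05%. Knock-in naive replicate 1 had 12421 genes at 1 CPM or more, against 12275 to 12299 in its group. Stage groups of 13 and 12 libraries were too large for this reading.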

How the results depend on the processing

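The count of called genes, 1620 (889 higher, 731 lower), stayed within 1.5 times under 9 of the 10 settings other than leaving out libraries, from 1222 with a term for library number in sets of 4 to 1824 with no filter. With the share of ribosomal RNA-like genes as a term it was 558 (322 higher, 236 lower), a share that differs between the stages. Leaving out single libraries gave 1252 (without knock-in day 7 replicate 1) to 1801 (without knock-out day 7 replicate 2), with 667 to 995 higher and 585 to 806 lower. The interaction was called for 2 genes with DESeq2 and 312 with no filter, where 29775 genes were tested. Of the named genes, 49 lost their call with the ribosomal RNA-like share and 17 with limma voom. Genes whose direction turned were uncalled or 5S genes. Lck, at 0.00065, was -0.0056 with limma voom, -0.0037 with no filter, -0.00249 with no genotype term, -0.00249 with 6 group means and -0.049 with the ribosomal RNA-like share. Hba-a1, at -0.25, was 0.51 with DESeq2 and 0.41 with limma voom. With the ribosomal RNA-like share, in which 5S genes annotated as rRNA are counted, n-R5s151 was -0.060 and n-R5s136 -0.601. The cause was not tested. Leaving out single libraries, Lck ran from -0.0121 to 0.0285 and Hba-a1 from -1.30 to 0.391. The fit with sex as a term was not run, since the libraries did not differ in it: each held at least 6895 counts of Xist and at most 7 of any of 4 Y-linked genes. No paired analysis was possible because the labels give the groups no shared replicate numbers; the sets of 4 library numbers above are a blocking by number order and are not stated to pair libraries. Depth limits genes near 1 CPM, of which Il22, Cebpa and Mpo are examples.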
